A study of Mus musculus with 13 samples.

Results

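Mammary tumors driven by TSG101 differed widely in how much of the milk gene Csn2 (beta-casein) they still expressed, and 9 of the 10 sequenced tumors were compared here by that level. The tumors were grouped by their measured Csn2 value: 4 tumors with more than 4000 normalized cpm (tumors 2, 5, 6 and 10, from 3 mice) formed the high set, and 5 tumors with less than 1700 normalized cpm (tumors 1, 3, 7, 8 and 9, from 4 mice) formed the low set. Tumor 4 lay between these limits and was left out. The series holds 13 RNA-seq libraries of total RNA from flash-frozen tissue, with 10 mammary tumors of 6 female mice and the mammary glands of 3 wild-type FVB females, which serve as a reference. The tumor-bearing females carried MMTV-tTA and TetO-Tsg101 (MtTA Teto-TSG101wt in the labels). In this model the MMTV promoter drives the tetracycline-controlled transactivator tTA, which switches on a TetO-controlled, HA-tagged TSG101 together with luciferase, mainly in the luminal epithelium and in a mosaic manner. The wild-type glands carry neither transgene. Ages, parity and reproductive stage of the sequenced animals were not given in the sources used here. Mouse 51067 gave tumors 2 and 3, mouse 51356 gave tumors 5 and 6, mouse 51386 gave tumors 8, 9 and 10, and the other 3 mice gave 1 tumor each. Tumors of the same mouse are not independent samples.

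Beta-casein is secreted by the alveolar cells of the mammary epithelium, which make milk proteins, milk fat and lactose. Prolactin acts through its receptor, the kinase JAK2 and the transcription factors STAT5A and STAT5B, and together with ELF5 it drives alveolar differentiation and the transcription of casein and whey protein genes. Activated STAT5 binds DNA at the palindrome TTCNNNGAA, where N is any base.

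The promoters of 5 milk genes are shown: Csn2, on which the sets were made, Csn1s2a and Wap, which had the largest differences among the milk genes apart, and Csn1s1 and Glycam1, which are the other milk genes with the motif in this window. Each line holds the 250 bases before a RefSeq transcript start in the genome build GRCm38.p6, written 5′ to 3′ on the strand of the gene, and capitals mark TTCNNNGAA, which reads the same on both strands. The stretches are chr5:87699426-87699675 (minus strand) for Csn2, chr5:87665958-87666207 (plus strand) for Csn1s1, chr15:103565082-103565331 (minus strand) for Glycam1, chr5:87774200-87774449 (plus strand) for Csn1s2a and chr11:6638650-6638899 (minus strand) for Wap.
Csn2: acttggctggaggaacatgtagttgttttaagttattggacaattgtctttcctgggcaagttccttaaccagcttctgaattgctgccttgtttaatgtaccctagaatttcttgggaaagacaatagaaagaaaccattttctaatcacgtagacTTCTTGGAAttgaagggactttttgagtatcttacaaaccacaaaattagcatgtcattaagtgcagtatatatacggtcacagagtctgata
Csn1s1: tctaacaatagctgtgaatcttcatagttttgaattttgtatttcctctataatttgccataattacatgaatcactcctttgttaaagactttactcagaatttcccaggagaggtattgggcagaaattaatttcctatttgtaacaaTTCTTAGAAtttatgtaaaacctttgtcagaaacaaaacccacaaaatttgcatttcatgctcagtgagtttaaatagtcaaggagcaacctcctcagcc
Glycam1: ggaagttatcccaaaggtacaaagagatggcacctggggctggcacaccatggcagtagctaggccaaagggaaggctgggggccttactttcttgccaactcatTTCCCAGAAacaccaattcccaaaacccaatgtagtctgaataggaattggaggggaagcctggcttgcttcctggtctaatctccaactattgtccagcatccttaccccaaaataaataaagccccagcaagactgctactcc
Csn1s2a: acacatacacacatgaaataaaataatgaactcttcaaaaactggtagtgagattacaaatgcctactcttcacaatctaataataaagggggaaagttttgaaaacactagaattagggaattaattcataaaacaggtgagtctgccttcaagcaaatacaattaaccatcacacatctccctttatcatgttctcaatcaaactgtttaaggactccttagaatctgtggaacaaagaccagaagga
Wap: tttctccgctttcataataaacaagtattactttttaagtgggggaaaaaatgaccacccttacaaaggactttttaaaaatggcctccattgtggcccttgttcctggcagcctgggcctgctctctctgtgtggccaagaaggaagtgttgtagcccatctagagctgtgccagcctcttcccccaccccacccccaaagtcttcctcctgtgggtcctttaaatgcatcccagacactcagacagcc
The motif lay 93 to 85 bases before the start of Csn2, 100 to 92 bases before that of Csn1s1 and 145 to 137 bases before that of Glycam1. It was in none of the other 14 of the 17 matched genes among Csn2 and the listed milk genes, Wap and Csn1s2a included. Of all 32851 promoters in the table, 7.02% held it in their 250 bases. A match of letters is a description of the sequence, and no match says only that these letters are not in this window.

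Csn2 (Entrez 12991; GRCm38.p6 chromosome 5, 87692619 to 87699429) stood at 7857, 8708, 21978 and 4035 normalized cpm in tumors 2, 5, 6 and 10. It stood at 1504, 1635, 318, 794 and 85.1 normalized cpm in tumors 1, 3, 7, 8 and 9, and at 2120 normalized cpm in tumor 4. These values made the sets, so that their gap is not a finding. The members nearest to the limits were tumor 10 at 4035 and tumor 3 at 1635 normalized cpm. Counting error was small against these gaps, with between 374 reads (tumor 9) and 232825 reads (tumor 6) on Csn2. The glands held 56894, 63624 and 59019 normalized cpm, above every tumor. The mean of the high set was 17.8% of the gland mean and that of the low set 1.45%. Milk transcripts vary with reproductive stage, and since that of the gland donors is not given, these and all later milk gene values relative to the glands hold for these 3 glands only. Over all 10 tumors, Csn2 differed from the glands by -4.96 ± 1.27 on the log2 scale (limma, SE, adjusted p = 0.00877), with all 10 tumors below the glands. Tumors of different level grew in the same animal: in mouse 51067, tumor 2 was high and tumor 3 low, and in mouse 51386, tumor 10 was high while tumors 8 and 9 were low.

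**Figure D1:**
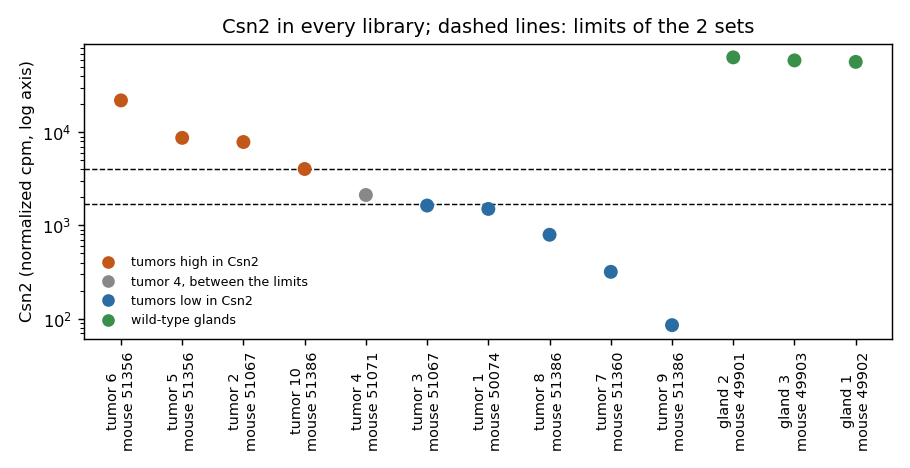
Csn2 in normalized cpm on a log axis for each of the 13 libraries, one point per library, colored by set, with the mouse under each name and dashed lines at the limits of 4000 and 1700. The 3 glands lie between 56894 and 63624, above the highest tumor at 21978, and the tumors of mice 51067 and 51386 fall on both sides of the limits.

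The unit, normalized cpm, is the read count divided by the library size and by a further factor for each library. Libraries of the high set had 6176269 to 11110510 reads, those of the low set 6183457 to 15170078, and the glands 11672487 to 23889042. A gene without a read could still be present at up to 3 reads (95% confidence, counting error only), which corresponds to 0.141 to 0.683 normalized cpm, depending on the tumor. Tsg101, the gene of the transgene, was at 62.7, 72.6, 58.5 and 71.0 normalized cpm in tumors 2, 5, 6 and 10, and at 79.3, 49.9, 64.0, 55.3 and 101.3 normalized cpm in tumors 1, 3, 7, 8 and 9. The sets overlapped, with a difference in their means of -0.04 on the log2 scale. Against the glands (45.6, 53 and 61 normalized cpm), Tsg101 differed by 0.30 ± 0.20 on the log2 scale (limma, SE, adjusted p = 0.296), with 6 of 10 tumors above all glands, and by -0.08 when libraries were scaled to luminal epithelial genes. Transgenic and endogenous Tsg101 reads are counted together in this table. The ribosomal RNA precursor Rn45s took 2.52% to 9.32% of the reads in the high set and 0.799% to 27.4% in the low set, with the highest share in tumor 9. The labels name a core facility and a company as sequencing sites but not which library went where, so that no batch could be assigned.

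The high and low tumors were compared across the other 11794 genes that passed the filter on low abundance. Because the sets were selected on measured expression, the differences are given as a description without a test: the difference of the mean log2(normalized cpm + 1) between the sets, and whether the values of the 4 high and 5 low tumors overlapped. The ranges of 53 genes (0.449%) did not overlap, with means that differed by more than 2-fold and were higher in the high set. For 3 genes (0.0254%), the same held with lower means. Here and below, this is what apart by more than 2-fold means. Any size given with apart is the difference of the set means, not the width of the gap between the ranges. Without the limit on fold, 139 genes (1.18%) were apart and higher and 51 (0.432%) were apart and lower. The median difference over all genes was 0.01. Of the 53 genes, 9 would not have passed the filter on the libraries outside the high set, among them Csn1s2b, Lao1, Fabp3, Gldc and Rprm, and no weight is put on the gaps of these 9. The differences of the 53 genes lay between 1.00 and 5.89 on the log2 scale, and milk genes held the largest of them. Leaving out a tumor makes it easier for ranges to be apart. Without tumor 8, a low tumor, 87 genes were apart by more than 2-fold and higher and 15 lower, and 52 of the 87 were among the 53. Without tumor 9, 48 were higher and 3 lower, and without tumor 7, 58 were higher and 5 lower. The count of lower genes was also 9 without tumor 2 or without tumor 5, 6 without tumor 10 or without tumor 3, 5 without tumor 1, and 4 without tumor 6. In these bulk tissues, fewer cells of a type and less RNA per cell cannot be told apart.

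**Figure D2:**
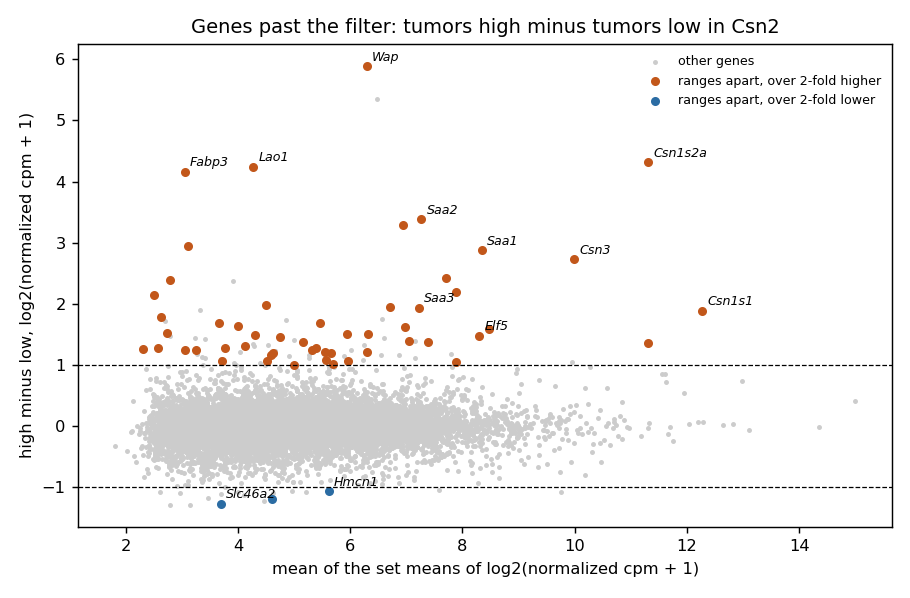
Difference between the 4 high and the 5 low tumors on the log2(normalized cpm + 1) scale (vertical axis) against the mean of the set means (horizontal axis) for 11794 genes, one point per gene, with dashed lines at 2-fold. The 53 orange genes reach 5.89 (Wap), and the 3 blue genes lie between -1.06 and -1.27.

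The milk list held 24 genes besides Csn2, and 21 of the 22 in the table passed the filter. Of these 21, 11 were apart by more than 2-fold and higher in the high set (52.4%, against 0.449% of all genes), none was apart and lower, and the median difference was 1.89. Csn1s2b and Lao1 are among these 11, and 9 of the 19 milk genes that passed the filter without the high tumors were apart. The list was written with results of these data known, and the caseins and whey proteins on it are, like Csn2, known prolactin targets. The mean log2 level of the list was 9.03 ± 0.535 in the high set (SD, n = 4) and 6.93 ± 0.600 in the low set (SD, n = 5). Its summed value lay between 24534 and 79187 normalized cpm in the high set, between 9739 and 19126 in the low set, and between 151583 and 320972 in the glands. No high tumor reached the gland range.

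The caseins are calcium-binding phosphoproteins that form the milk micelle, and their genes lie together on chromosome 5 (GRCm38.p6, 87666208 to 87932550). Csn1s2a, an alpha-S2-type casein, was at 9635, 18116, 27428 and 3355 normalized cpm in tumors 2, 5, 6 and 10, and at 2473, 1272, 433, 551 and 75.1 normalized cpm in tumors 1, 3, 7, 8 and 9. The sets did not overlap, and the difference was 4.32 on the log2 scale. Csn3, the kappa-casein that stabilizes the micelle, was at 2186, 2257, 5130 and 1886 normalized cpm in tumors 2, 5, 6 and 10, and at 390, 704, 219, 891 and 181 normalized cpm in tumors 1, 3, 7, 8 and 9. Its sets were apart by 2.73. Csn1s1, the alpha-S1-casein, had the smallest difference of the cluster at 1.89, with 7167, 8878, 16688 and 7662 normalized cpm in tumors 2, 5, 6 and 10. Its low tumors kept 4539, 2949, 1808, 4490 and 1027 normalized cpm in tumors 1, 3, 7, 8 and 9. Even tumor 9, with the least Csn2 at 85.1 normalized cpm, thus held 1027 normalized cpm of Csn1s1. Relative to the gland mean, the low set kept 7.52% of Csn1s1 and 1.22% of Csn1s2a, while the high set kept 25.6% and 18.6%. Csn1s2b was far lower, at 12.2, 12.5, 7.65 and 12.3 normalized cpm in tumors 2, 5, 6 and 10 and between 0.315 and 3.66 normalized cpm in the low set (difference 2.14). It depends on few reads, and its value in tumor 7 amounted to the floor of 3 reads. The 4 casein genes besides Csn2 were thus higher in every high tumor than in every low tumor. Csn1s2b passed the filter only with the high tumors. Sult1d1, a sulfotransferase gene beside the caseins, overlapped between the sets with a difference of 0.19 and did not pass the filter.

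Among the other secreted milk proteins, Wap (Entrez 22373; GRCm38.p6 chromosome 11, 6635483 to 6638654), the whey acidic protein, had the largest difference of all genes at 5.89. It was at 482, 875, 1706 and 185 normalized cpm in tumors 2, 5, 6 and 10, and at 21.8, 28.5, 3.67, 12.5 and 1.59 normalized cpm in tumors 1, 3, 7, 8 and 9. The high set kept 9.15% of the gland mean of Wap and the low set 0.154%. Lalba, the alpha-lactalbumin that turns galactosyltransferase into lactose synthase, was at 523, 390, 492 and 213 normalized cpm in tumors 2, 5, 6 and 10. In the low tumors 1, 3, 7, 8 and 9 it was at 128, 49.7, 15.7, 62.8 and 12.1 normalized cpm, and the sets were apart by 3.29. The glands held 584, 828 and 2959 normalized cpm of Lalba, so that tumors 2, 5 and 6 came close to the lowest gland. Lao1, an L-amino acid oxidase of mouse milk, was at 36.5, 64.4, 165 and 120 normalized cpm in tumors 2, 5, 6 and 10. It was between 0.419 (tumor 7) and 22.5 (tumor 8) in the low set, a difference of 4.24, and passed the filter only with the high tumors. Glycam1, a mucin-like milk protein, had the second-largest difference of the list at 5.36 and yet was not apart. Its values were 483, 1630, 3201 and 41.5 normalized cpm in tumors 2, 5, 6 and 10, and 63.1, 43.8, 9.33, 4.12 and 2.50 normalized cpm in tumors 1, 3, 7, 8 and 9. Tumor 10 thus lay below tumors 1 and 3 for Glycam1, although above its sister tumors 8 and 9.

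**Figure D3:**
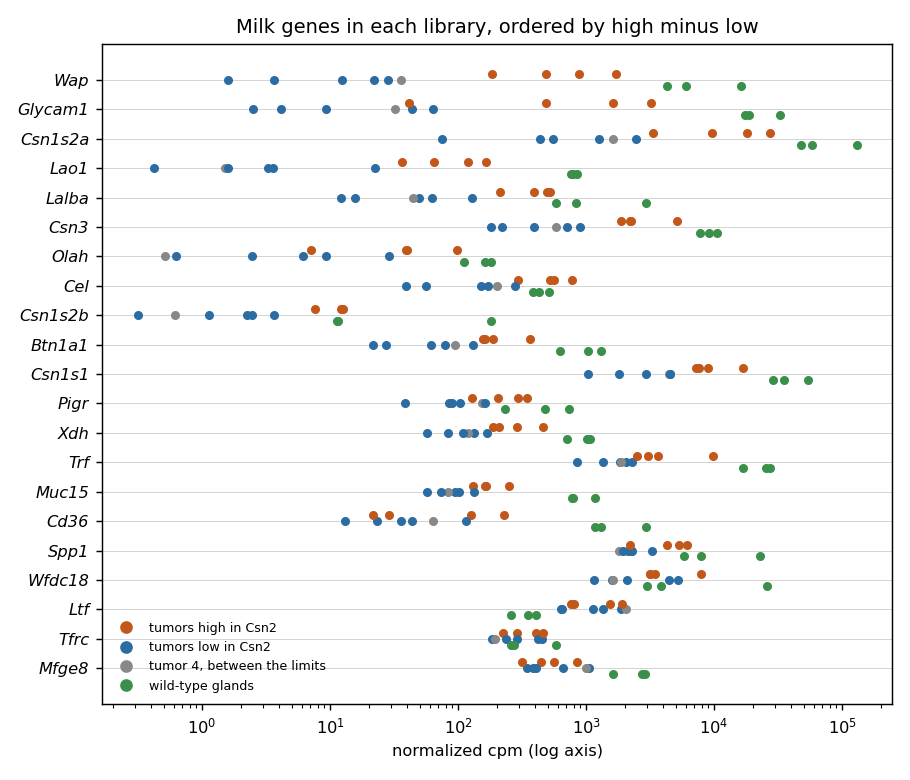
Level of the 21 milk genes past the filter in each library, in normalized cpm on a log axis, one point per library, with genes ordered by the difference between the sets. Wap is on top at 5.89 and Mfge8 at the bottom at -0.02 on the log2 scale, and the low tumors spread more widely than the high tumors for Wap, Lao1 and Csn1s2a.

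Proteins of the milk fat globule and of milk defense followed with smaller gaps. Cel, the bile salt-stimulated lipase of milk, was at 563, 292, 773 and 519 normalized cpm in tumors 2, 5, 6 and 10, and at 172, 150, 38.9, 279 and 56.2 normalized cpm in tumors 1, 3, 7, 8 and 9. The glands held 511, 387 and 429 normalized cpm of Cel, so that tumors 2, 6 and 10 lay above all glands and tumor 5 below all of them. Over all 10 tumors, Cel differed from the glands by -1.02 ± 0.73 on the log2 scale (limma, SE, adjusted p = 0.332), with 7 tumors below all glands and 3 above. Btn1a1 (butyrophilin) and Xdh (xanthine dehydrogenase), which coat the milk fat globule, differed by 1.95 and 1.38, and the iron carrier Trf (transferrin) by 1.36, all apart. Trf was at 3061, 3634, 9745 and 2510 normalized cpm in tumors 2, 5, 6 and 10 and between 843 and 2278 normalized cpm in the low set. The remaining milk genes overlapped between the sets. Their differences were 2.37 for Olah, the thioesterase that ends fatty acid chains at medium length, 1.38 for the immunoglobulin transporter Pigr, 0.96 for Muc15, 0.86 for the fatty acid transporter Cd36 (-0.50 without mouse 51356), 0.85 for Spp1 (osteopontin) and 0.72 for Wfdc18. Mfge8, a secreted fat globule protein, and Ltf, the iron-binding lactoferrin, stood at -0.02 and 0.16, and the transferrin receptor Tfrc at 0.15. Ltf was also the milk gene that was higher in the tumors than in the glands, by 1.79 ± 0.39 (limma, SE, adjusted p = 0.00307, 10 of 10 tumors above all glands).

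Among the regulators of alveolar differentiation, Elf5 was the 1 gene apart of 19 past the filter (24 listed), or 5.26%, against 0.449% of all genes apart by more than 2-fold and higher. Elf5, the transcription factor that specifies alveolar cells, was at 435, 423, 898 and 457 normalized cpm in tumors 2, 5, 6 and 10, and at 211, 217, 114, 371 and 118 normalized cpm in tumors 1, 3, 7, 8 and 9. The difference was 1.48, and tumor 4, at 204 normalized cpm, lay within the low range. Elf5 differed between tumors and glands by -1.68 ± 0.52 (limma, SE, adjusted p = 0.0251, 9 of 10 tumors below all glands). Stat5a was at 149, 134, 206 and 207 normalized cpm in tumors 2, 5, 6 and 10 and at 123, 99.7, 57.5, 172 and 68.1 normalized cpm in tumors 1, 3, 7, 8 and 9, a difference of 0.82 with overlap. Tumor 8 was the low tumor that reached into the high range for Stat5a. The receptor Prlr differed by 0.44, Stat5b by 0.36, the kinase Jak2 by -0.07 and the STAT5 target Cish by 0.66, all with overlap. The luminal factor Gata3 (-0.19), the STAT5 target Socs2 (-0.28) and the progenitor-linked enzyme Aldh1a3 (-0.91) had lower means in the high set, again with overlap. The list had a median of 0.06, against 0.01 over all genes, with 10 of 19 differences above 0.

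Genes of milk fat production were apart in part. Of 30 genes for lipid synthesis past the filter (31 listed), 5 were apart and higher (against 1.18% of all genes), 3 of them by more than 2-fold (against 0.449%), and none was apart and lower. One of these 3, Fabp3, passed the filter only with the high tumors. The median difference was 0.31. Fabp3, a fatty acid carrier of the lactating gland, was at 7.68, 66.1, 148 and 16.3 normalized cpm in tumors 2, 5, 6 and 10, and between 0.524 and 1.59 normalized cpm in all low tumors. The glands held 401, 459 and 1538 normalized cpm of Fabp3. Its difference was 4.16, and since the low values lay near the floor of 3 reads, it was 4.57 with a pseudocount of 0.5 and 2.79 with one of 5 in place of 1. Thrsp (Spot 14), a regulator of fatty acid synthesis, was at 429, 330, 660 and 582 normalized cpm in tumors 2, 5, 6 and 10. In tumors 1, 3, 7, 8 and 9 it was at 120, 62.8, 39.6, 246 and 75.1 normalized cpm, a difference of 2.43. Plin2, which coats lipid droplets, differed by 1.58, with 422, 514, 1369 and 480 normalized cpm in tumors 2, 5, 6 and 10 and between 163 and 240 normalized cpm in the low set. Lpl, the lipoprotein lipase that releases fatty acids from blood lipids and is listed here among the adipocyte genes, differed by 1.07 and was apart. The median difference of the adipocyte list was -0.15 over 4 genes.

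Of 25 genes for lactose synthesis and transport past the filter (26 listed), 5 were apart by more than 2-fold and higher (20%, against 0.449% of all genes), and none was apart and lower (against 0.432%). The median of the list was 0.19. Folr1, the folate receptor, had the largest difference at 1.69, with 94.0, 50.3, 119 and 66.8 normalized cpm in tumors 2, 5, 6 and 10 and 24.1, 34.4, 17.6, 36.0 and 13.7 normalized cpm in tumors 1, 3, 7, 8 and 9. The others were Atp2c2, a calcium pump of the secretory pathway (1.37), Slc30a2, the zinc exporter of milk (1.30), B4galt1, the catalytic subunit of lactose synthase (1.05), and the calcium channel Orai1 (1.00). Both subunits of lactose synthase, Lalba and B4galt1, were thus higher in every high tumor than in every low tumor.

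Serum amyloid A genes formed a second group, which was near absent from 2 of the 3 glands. Saa1 (Entrez 20208; GRCm38.p6 chromosome 7, 46740497 to 46743181), an acute phase apolipoprotein also made by mammary epithelium, was at 885, 733, 1217 and 760 normalized cpm in tumors 2, 5, 6 and 10. It was at 119, 115, 113, 245 and 63.7 normalized cpm in tumors 1, 3, 7, 8 and 9, and at 2.06, 1.5 and 51.3 normalized cpm in the glands. The sets were apart by 2.87, and Saa1 was higher in the tumors than in the glands by 5.25 ± 1.00 (limma, SE, adjusted p = 0.00117, 10 of 10 tumors above all glands). Saa2 was at 481, 388, 952 and 341 normalized cpm in tumors 2, 5, 6 and 10, and at 40.4, 59.3, 51.9, 103 and 16.8 normalized cpm in tumors 1, 3, 7, 8 and 9. Its difference was 3.38. Saa1 and Saa2 are near-identical copies, and how the counting divided their reads is uncertain. Saa3, a more distant copy, was at 446, 276, 273 and 215 normalized cpm in tumors 2, 5, 6 and 10, and at 36.4, 65.9, 92.1, 124 and 89.4 normalized cpm in tumors 1, 3, 7, 8 and 9, a difference of 1.93. Against the glands, Saa2 was higher by 4.99 ± 1.08 (limma, SE, adjusted p = 0.00293, 9 of 10 tumors above all glands) and Saa3 by 4.76 ± 0.68 (adjusted p = 0.000109, 10 of 10). These 3 genes were the ones apart among 24 genes of involution and the acute phase past the filter (25 listed; 12.5%, against 0.449% of all genes apart by more than 2-fold and higher), whose median was 0.03 with 12 of 24 differences above 0.

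The 3 genes that were apart by more than 2-fold and lower in the high set were Slc46a2, AI504432 and Hmcn1. With libraries scaled to luminal epithelial genes, 0 of the 3 kept this call, and with a pseudocount of 5, 1 kept it. Slc46a2, a solute carrier, was at 7.8, 9.0, 4.81 and 8.45 normalized cpm in tumors 2, 5, 6 and 10 and at 16.1, 13.9, 35.7, 11.3 and 27.1 normalized cpm in tumors 1, 3, 7, 8 and 9, a difference of -1.27. AI504432 differed by -1.20. Hmcn1, the matrix protein hemicentin 1, differed by -1.06, with 32.3, 35.7, 26.2 and 38.8 normalized cpm in tumors 2, 5, 6 and 10 and 110, 43.3, 49.6, 61.2 and 115 normalized cpm in tumors 1, 3, 7, 8 and 9. Below 2-fold came the homeobox genes Hoxb3 (-0.99) and Hoxb2 (-0.97), the protocadherin Pcdhb17 (-0.98), the efflux pump Abcc3 (-0.83), Zfp608 (-0.79) and the channel subunit Kcns1 (-0.77). Lgr5, a receptor for R-spondins and target of Wnt signaling, was at 51.3, 51.2, 61.0 and 58.5 normalized cpm in tumors 2, 5, 6 and 10, and at 100.51, 79.0, 86.3, 139 and 100.4 normalized cpm in tumors 1, 3, 7, 8 and 9. Its difference was -0.83, and both sets stood far above the glands, which held 0.171, 0.671 and 0.244 normalized cpm. Lgr5 was the 1 gene apart among 14 Wnt feedback and target genes past the filter (17 listed), against 0.432% of all genes apart and lower, and the median of this list was -0.05.

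Of the 53 higher genes, 24 were on a list, 11 of them on the milk list, and 29 were on none. Chrdl2, a BMP-binding secreted protein, was among the 10 with the largest difference at 2.95, with 25.5, 14.7, 49.7 and 14.5 normalized cpm in tumors 2, 5, 6 and 10 and between 0.524 and 5.28 normalized cpm in the low set. The following were chosen after their values were seen. Fam20c, the Golgi kinase that phosphorylates caseins, was at 128, 104, 225 and 107 normalized cpm in tumors 2, 5, 6 and 10 and at 40.1, 63.8, 24, 72.7 and 47.3 normalized cpm in tumors 1, 3, 7, 8 and 9, a difference of 1.51. Abcg2, a transporter that secretes riboflavin into milk, also differed by 1.51, and the acyl-CoA synthetase Acsl1 by 1.62. The glycine-cleaving enzyme Gldc differed by 2.39 but passed the filter only with the high tumors. The peptide hormone gene Apln differed by 1.99, the arginase Arg2 by 1.49 and the triglyceride lipase Pnpla2 by 1.21. Rprm, a gene linked to cell cycle arrest, differed by 1.69 and passed the filter only with the high tumors, with 1.07, 0.62 and 0.61 normalized cpm in the glands.

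For 46 of the 53 genes, all 3 glands lay above all low tumors, against 12.0% of all 11794 genes, and for 33 of them also above all high tumors, against 8.78%. For 3 genes, all glands lay below all low tumors, against 12.8%. The 53 genes were picked for low values in the low set, which enter these counts, so that nothing is read from them. Between all 10 tumors and the 3 glands, limma called 1204 genes (10.2% of 11795) higher and 825 (6.99%) lower in tumors at an FDR below 0.05 and more than 2-fold. Of the 53 genes, 38 were lower in the tumors, 4 were higher (Saa1, Saa2, Saa3 and Rprm) and 11 had no call. The same tumors enter both comparisons, so that these counts are not independent. Relative to the glands, Wap differed in the tumors by -6.98 ± 1.69 on the log2 scale (limma, SE, adjusted p = 0.00633), Csn1s2a by -5.10 ± 1.40 (adjusted p = 0.0133), Csn3 by -3.36 ± 0.84 (adjusted p = 0.0078), Csn1s1 by -3.05 ± 0.69 (adjusted p = 0.00409) and Fabp3 by -6.69 ± 1.27 (adjusted p = 0.00114), with 10 of 10 tumors below all glands for each. Lalba differed by -3.51 ± 1.06 (limma, SE, adjusted p = 0.0232, 10 of 10 tumors), but without gland 2 its adjusted p was 0.0557 and without gland 3 it was 0.0907. Of the 21 milk genes, 17 were lower and 1 higher in the tumors. With libraries scaled to luminal epithelial genes, the median of all genes shifted to -0.35 between tumors and glands, and 780 genes were called higher and 1658 lower.

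**Figure D4:**
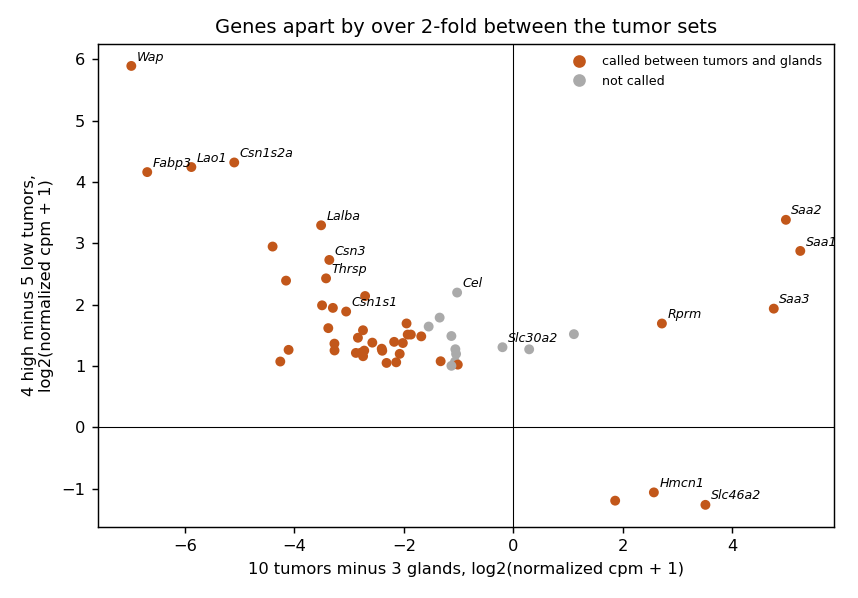
Difference between the high and low tumors (vertical axis) against the difference between all 10 tumors and the 3 glands (horizontal axis), both on the log2(normalized cpm + 1) scale, for the 53 higher and 3 lower genes, with orange for genes called between tumors and glands and gray for the others. Wap, Csn1s2a, Lao1 and Fabp3 lie at the upper left, whereas Saa1, Saa2 and Saa3 lie at the right between 4.76 and 5.25. Lao1 and Fabp3 passed the filter only with the high tumors.

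Tumor 4, with 2120 normalized cpm of Csn2, was below all high tumors for 49 of the 53 genes, against 23.8% of all genes, and within or below the range of the low tumors for 44, against 86.7%. The first count follows in part from the choice of genes with high values in the high set, and the second is a share near that of all genes. Tumor 4 held 35.9 normalized cpm of Wap, 44.2 of Lalba and 196 of Saa1. When it was counted with the high set, the genes apart by more than 2-fold and higher numbered 8, with 1 of them on the milk list, and when it was counted with the low set there were 50. The number of higher genes thus turned on where this tumor was placed. Milk genes also differed between tumors of 1 animal. In mouse 51067, tumor 2 exceeded tumor 3 by a median of 1.28 on the log2 scale over the 21 milk genes, with 18 of them higher. In mouse 51386, tumor 10 exceeded the mean of tumors 8 and 9 by a median of 1.40, with 17 of 21 higher. In both mice, the 11 milk genes apart between the sets were higher by construction. No share over all genes is given for these counts. Wap, Lalba, Elf5 and Saa1 were also apart between the sets, which fixed the direction of their differences within a mouse. For Wap the differences within these mice were 4.03 and 4.98, for Lalba 3.37 and 2.89, for Elf5 1.00 and 1.12, and for Saa1 2.94 and 2.59. Each of these values rests on 2 or 3 libraries. Without mouse 51386, from which tumors 8, 9 and 10 came, 102 genes were apart by more than 2-fold and higher (53 with this mouse) and 27 lower (3 with it), and 52 of the 102 were among the 53.

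Markers of cell types were compared between the sets to show what else differed between these tissues. Luminal epithelial genes, such as the simple keratins, had a mean log2 level of 7.18 ± 0.117 in the high set (SD, n = 4) and 6.95 ± 0.170 in the low set (SD, n = 5), with a median difference of 0.30 over 15 genes. Krt19 was the 1 gene of this list that was apart, at 0.59, against 1.18% of all genes apart and higher. The summed level of the list lay between 2849 and 3647 normalized cpm in the high set and between 2410 and 3441 in the low set, and the ranges overlapped. Hormone-sensing luminal genes had a median of -0.28 over 7 genes, but their summed level was 1110 to 2231 normalized cpm in the high set and 510 to 1135 in the low set. Most of that sum was Xbp1, a transcription factor of secretory cells chosen here after its values were seen, at 1474, 1015, 2131 and 1265 normalized cpm in tumors 2, 5, 6 and 10. Xbp1 was at 655, 848, 634, 1054 and 408 normalized cpm in tumors 1, 3, 7, 8 and 9, a difference of 1.05 with overlap through tumor 8. None of the hormone-sensing genes was apart. Basal and myoepithelial genes had a median of -0.11 over 19 genes (0.12 without tumor 7), with none apart. Both tumor sets held squamous transcripts: the summed level of the squamous and cornified list lay between 2897 and 4556 normalized cpm in the high set and between 2587 and 13412 in the low set, against 92.6 to 161 in the glands. The median difference was -0.54 over 24 genes, and the highest level was that of tumor 7. Hair follicle genes had a median of 0.02 over 16 genes, whose sign changed with single tumors left out, and a summed level of 1019 to 1324 normalized cpm in the high set and 734 to 6140 in the low set, again highest in tumor 7. None of the squamous or hair follicle genes was apart. Genes of cell division had a median of 0.21, with 21 of 24 differences above 0 and none apart.

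Markers of cells outside the epithelium overlapped as well. Macrophage genes had lower means in the high set for all 12 genes past the filter (13 listed), with a median of -0.39 and none apart. Their summed level was 1265 to 3336 normalized cpm in the high set and 1733 to 5458 in the low set. Neutrophil genes had a median of -0.53 over 5 genes, lymphocyte and plasma cell genes of -0.36 over 6, and fibroblast genes of -0.22 over 12. Endothelial genes had a median of 0.17 over 10 genes, with a summed level of 213 to 272 normalized cpm in the high set and 155 to 294 in the low set. Adipocyte genes had a median of -0.15 over 4 genes (0.17 without tumor 7), with 2 of 4 differences above 0. They summed to 116 to 201 normalized cpm in the high set and 106 to 323 in the low set, against 6035 to 14437 in the glands and 698 in tumor 4. With Lpl as the exception among 4 adipocyte genes past the filter (against 0.449% of all genes apart by more than 2-fold and higher), no marker of these cells was apart. Skeletal muscle genes summed to 10.8 to 507 normalized cpm in the high set, highest in tumor 10, to 12.6 to 27.7 in the low set and to 2929 in tumor 4, and the 1 gene past the filter differed by 0.30 (-0.46 without tumor 10). The 1 salivary and sebaceous gland gene past the filter differed by -0.53. The ESCRT-I list, which holds TSG101 and its partners in this sorting complex, had a median of 0.15 over 8 genes, with Vps37b (0.57) and Mvb12a (0.24) apart and higher, against 1.18% of all genes. None of the listed markers was at 0 in all 9 tumors, and the part of these cells in the differences was not tested.

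**Figure D5:**
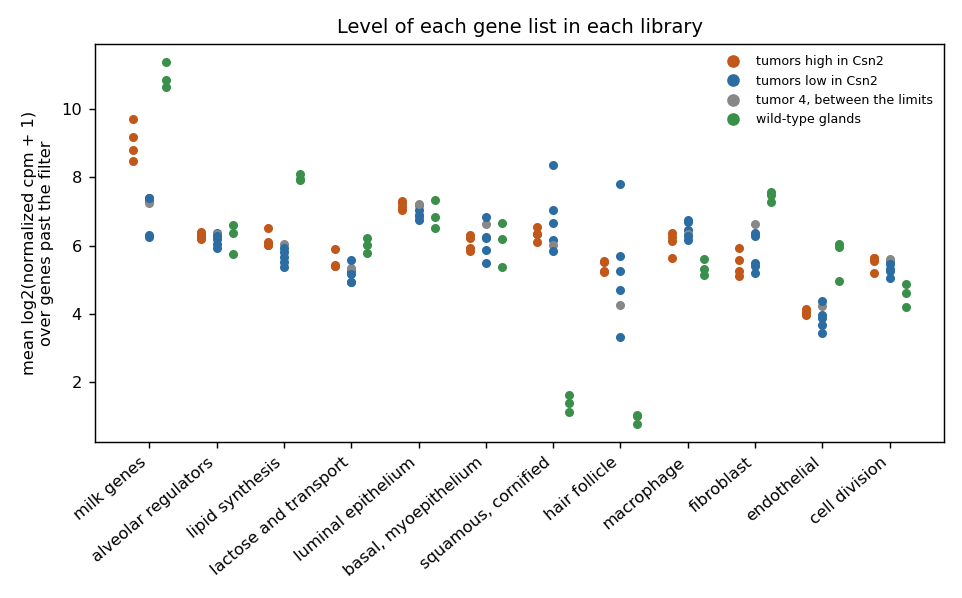
Mean log2(normalized cpm + 1) of 12 gene lists (genes past the filter) in each library, one point per library, colored by set. The milk genes are the list in which the 4 high tumors stand clear of all low tumors by the widest gap, and tumor 7 has the highest squamous (8.36) and hair follicle (7.80) level.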

How the data were processed

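RNA-seq was performed on 10 tumors and 3 glands. The authors aligned paired-end reads to mm10 (Rsubread), summed them over genes (featureCounts) and normalized the counts (edgeR). The values deposited by the authors are a normalized signal, here called normalized cpm: reads divided by an effective library size. Read counts could be recovered, with 100% of values in each library whole within 0.1 of a read. Whether counting used strand is not given in the sources used here. The table lists 15213 genes, of which 15106 matched GRCm38.p6 RefSeq genes by Entrez ID; promoter sequences are also from RefSeq (GRCm38.p6).

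A gene was kept when it passed 5 normalized cpm often enough (more libraries above than at or under this value), which kept 11795 and dropped 3418. Tumors and glands were compared with limma (trend) on log2(normalized cpm + 1), with Benjamini-Hochberg adjustment; standard errors are those of limma. The tumor sets were made from Csn2 and were compared without a test: Csn2 was left out of the counts, and ranges that did not overlap were counted as apart. P-values measure the spread between these samples, several of which share a mouse. The main limma fit treated them as independent. The tumors, the limits and the 21 gene lists (24 milk genes, regulators, lipid, transport, involution, Wnt, division, ESCRT-I and cell types) were chosen with earlier results of these data known. Named genes were Csn2, Tsg101 and Rn45s, the milk and regulator lists, up to 3 genes apart in each direction per other list, and the 10 genes apart with the largest difference in each direction. Scripts were tested on simulated data. The alternatives were pseudocounts of 0.5 and 5, no filter, DESeq2 size factors, luminal scaling, edgeR and DESeq2 on recovered reads, the place of tumor 4, mice, blocks and single libraries left out. R 4.3.3, limma 3.58.1, edgeR 4.0.16, DESeq2 1.42.0 and Python 3.11.15 were used.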

Additional observations from a re-analysis of the deposited data

Results flagged for a closer look

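Over the 10 tumors, 3 of 88 values examined (the mean level of each list and the levels of named genes) had 1 tumor far from the others, and chance alone marks about 1 in 20. Tumor 7, of the low set, had a mean log2 level of 8.36 for the squamous and cornified list, with the next tumor at 7.04 (gap over range 0.528). Tumor 7 also had a mean log2 level of 7.80 for the hair follicle list, with the next tumor at 5.68 (0.472). Tumor 6, of the high set, had a mean log2 level of 5.74 for the ESCRT-I list, with the next tumor at 5.51 (0.468). The last 2 only just passed the limit of Dixon's ratio at the 95% level.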

How the results depend on the processing

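Of the 60 named genes with a difference of more than 2-fold, 0 changed sign under the alternatives that were run. Among the 60 are the 53 higher and 3 lower genes, whose ranges do not overlap. Their sign was fixed wherever tumors were left out or averaged, so that nothing is read from it there. The median of the milk list stayed between 1.36 and 2.09. The medians of 8 other lists, none beyond 0.529 in size, changed sign under at least 1 alternative. The count of genes higher in the high set (53) was within 1.5 times under all pseudocounts, filters and scalings, but was 8 with tumor 4 in the high set and 102 without mouse 51386, and between 43 and 87 with 1 tumor left out. Of the 21 milk genes, 10 to 15 were apart by more than 2-fold and higher under every alternative except tumor 4 in the high set (1). Over all genes, the share was 0.348% to 0.865%, and 0.0678% with tumor 4 in the high set. Both the 15 milk genes and the 0.865% were found without mouse 51386. The small count of lower genes (3) was 6 with a pseudocount of 0.5, 1 with a pseudocount of 5, 6 with DESeq2 size factors, 0 with luminal scaling, 15 with the mean of tumors of a mouse, 8, 10 and 27 without mice 51067, 51356 and 51386, and between 3 and 15 with 1 tumor left out. The median of the salivary and sebaceous list was 0.23 without the filter, where more of its genes counted. Between tumors and glands, 2029 genes were called, 3141 without the filter, 2074 with edgeR and 2167 with DESeq2 on the recovered reads, and between 1636 and 2627 with 1 library left out. With the correlation between tumors of a mouse in the fit, 2023 were called, and with the mean of tumors of a mouse, 1917. With a replicate block on the numbers of the labels, 544 were called. These numbers do not pair the samples, which come from different mice: the correlations of the deviations of like-numbered libraries were -0.579, 0.0447 and -0.664. Depth limits the genes near the floor of 3 reads, such as Csn1s2b and Fabp3 in the low tumors.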
